A study of Homo sapiens with 42 samples.

Results

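The BCL11A locus of human chromosome 2 was examined through its chromatin loops, the pairs of 10 kb anchors between which contacts were counted. A loop was taken when either of its anchors started in chr2:59800000-61100000 (GRCh38), a window around BCL11A, PAPOLG and REL. This position rule used no measured value and took 12 of the 33914 loops in the table. Between them these 12 loops had 18 distinct anchors.

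BCL11A encodes a zinc finger repressor that silences the fetal globin genes in adult red cell precursors, and one of its introns holds an erythroid enhancer. REL encodes c-Rel, a DNA-binding subunit of the NF-kB family that is best known from lymphoid cells, and PAPOLG encodes a poly(A) polymerase that adds adenosines to the ends of RNA. Loops between distant anchors are commonly formed when cohesin extrudes DNA until it meets CTCF bound at the anchors, and they can bring promoters close to enhancers.

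Contacts were measured by in situ Hi-C, which ligates DNA ends lying close together in crosslinked nuclei, in wild-type K562 cells. K562 is an established human leukemia line with erythroid features that expresses fetal globin, and the phorbol ester PMA, an activator of protein kinase C, drives it toward a megakaryocyte-like state. All cells came from this 1 line and received 25 nM PMA for 0 h, 6 h or 72 h, with 4 biological replicates at each time. Replicates 1 and 2 had 3 technical replicates each, and replicates 3 and 4 had 2, each sequenced in 2 runs, so these pairs of replicates are treated below as batches. The medium was renewed after 24 h and 48 h, so that the cells of 72 h alone went through these changes, and medium change and PMA time cannot be told apart. Hi-C reads no RNA, so neither the cell type nor the levels of BCL11A, PAPOLG and REL could be checked.

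The 12 libraries held 736929 to 1472197 contacts over all loops. The 72 h replicates 3 and 4 agreed within sampling noise (p 0.367 by a chi-square test over loops, with 1.003 per degree of freedom). They count once in every mean ± SD, which gives 72 h an n of 3. The model fits kept all 12 libraries. Normalised contacts are contacts scaled to 1000000 in tested loops of each library after TMM scaling. On that scale a single contact was worth 0.724 to 1.42. Nothing in the labels says whether the biological replicates were separate cultures, so p-values measure the spread between these libraries. In a bulk population, a loop present in more cells and a loop closed more often in each cell cannot be told apart.

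The start regions of the 3 genes are shown because their positions relative to the anchors differ. They are RefSeq sequences (GRCh38.p14) of 300 bases, from 250 before to 50 after each gene's start. Capitals mark a match to the CTCF core, searched as AGNGGGC or AGNTGGC on both strands.
BCL11A: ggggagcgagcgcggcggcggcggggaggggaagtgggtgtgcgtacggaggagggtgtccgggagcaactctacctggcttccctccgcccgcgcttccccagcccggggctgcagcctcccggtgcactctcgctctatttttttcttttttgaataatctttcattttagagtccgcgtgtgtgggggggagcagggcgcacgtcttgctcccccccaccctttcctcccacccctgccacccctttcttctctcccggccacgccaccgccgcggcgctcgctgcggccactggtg
PAPOLG: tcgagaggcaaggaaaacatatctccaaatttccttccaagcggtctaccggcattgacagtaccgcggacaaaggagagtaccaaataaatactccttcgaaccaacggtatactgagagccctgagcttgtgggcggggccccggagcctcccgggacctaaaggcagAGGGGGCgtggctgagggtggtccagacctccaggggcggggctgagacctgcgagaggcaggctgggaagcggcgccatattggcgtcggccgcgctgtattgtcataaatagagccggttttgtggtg
REL: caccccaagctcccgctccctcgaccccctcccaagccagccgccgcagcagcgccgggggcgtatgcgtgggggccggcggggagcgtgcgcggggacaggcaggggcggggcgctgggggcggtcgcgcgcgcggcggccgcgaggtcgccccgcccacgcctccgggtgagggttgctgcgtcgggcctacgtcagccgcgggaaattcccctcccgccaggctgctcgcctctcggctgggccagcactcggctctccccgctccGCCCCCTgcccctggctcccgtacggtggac
The BCL11A region, chr2:60553875-60554174 on the minus strand, lay whole inside an anchor, and 4 of the 5 starts listed for the gene fell in that anchor. PAPOLG's region, chr2:60756018-60756317 on the plus strand, lay 33.7 kb from the nearest anchor of these loops. For REL, chr2:60881324-60881623 on the plus strand, that distance was 18.4 kb. None of the 12 loops therefore had an anchor at the start of PAPOLG or REL. The regions had a GC content of 67.0% for BCL11A, 58.7% for PAPOLG and 79.0% for REL, beside a median of 58.7% over the 34796 start regions of the table.

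The BCL11A region held no match to the CTCF core, the AP-1 motif TGANTCA or the GATA motif AGATAA. PAPOLG and REL each held 1 CTCF core match and no other, so that no matches overlapped. The match of PAPOLG, AGGGGGC, began 80 bases before the start (position -80), and that of REL, GCCCCCT on the printed strand, began at position 19 after the start. Over all start regions, 44.4% held a CTCF core match, 7.73% an AP-1 match and 10.4% a GATA match. A match is a run of letters and no measured site.

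The 12 loops fell into 2 kinds. On the BCL11A side lay 8 long loops of 840 kb to 2860 kb, all reaching from the locus toward lower coordinates. On the PAPOLG and REL side lay 4 loops of 110 kb to 380 kb. The median length over all loops was 440 kb, and 72.0% of loops were shorter than 840 kb. No loop joined the BCL11A side to the PAPOLG and REL side.

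**Figure D1:**
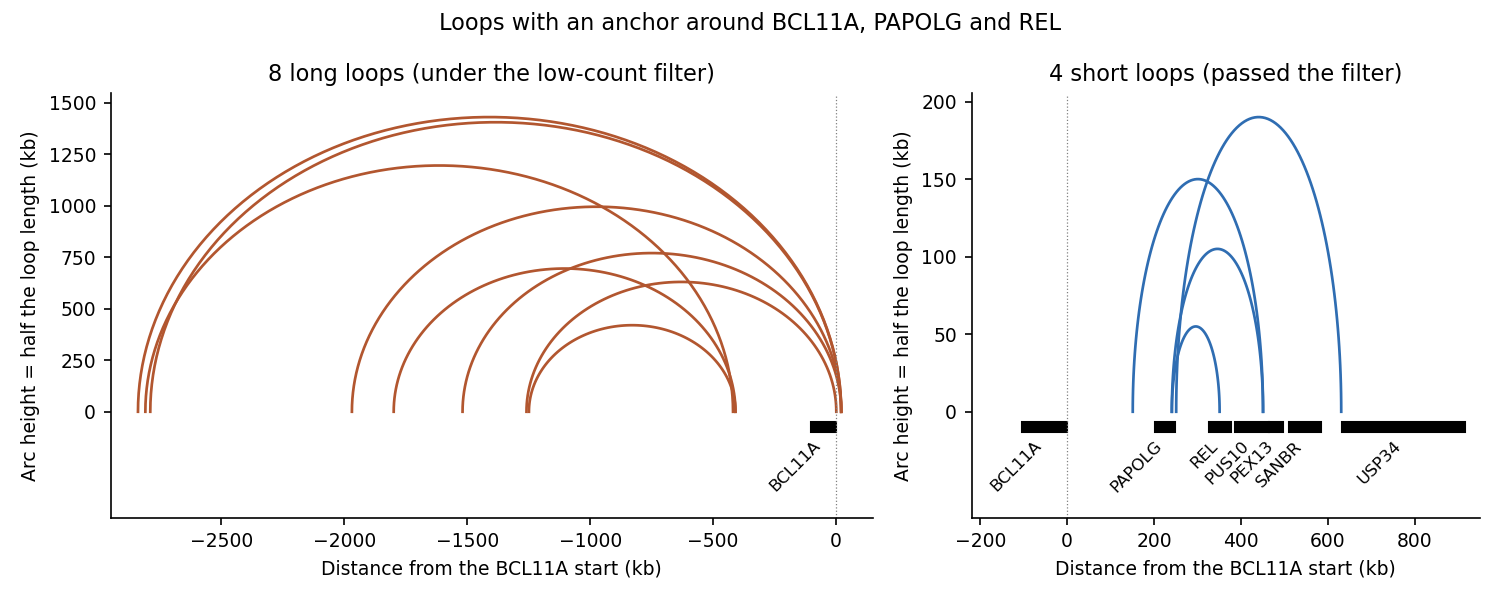
Positions of the 12 loops as arcs between their anchors, in kb from the BCL11A start, with arc heights in proportion to loop length on an axis in kb; black bars are genes near the anchors. The 8 long loops (left, brown) run to the left from anchors between 413.9 kb downstream and 16.1 kb upstream of the BCL11A start, and the 4 short loops (right, blue) lie between the left flank of PAPOLG and USP34.

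The anchors placed the loops at different parts of the genes. One loop, loop3658, joined chr2:60550001-60560000, which holds the BCL11A start, to chr2:59290001-59300000 in the long non-coding gene LOC105374754. No other anchor overlapped BCL11A, so no loop of the table ended in the remaining body of the gene. Another 4 loops shared the anchor chr2:60570001-60580000, which lies 16.1 kb upstream of the BCL11A start and holds no gene. Their other anchors started at 57710001 (loop3640), 57760001 (loop3646), 58580001 (loop3654) and 59030001 (loop3657), so that each of these loops spanned the whole gene. The remaining 3 long loops ended 403.9 kb to 413.9 kb downstream of the BCL11A start, at anchors starting at 60130001 (loop3642) and 60140001 (loop3655 and loop3659). Of the far anchors, 3 lay in LINC01122 and 2 in LOC105374754, both long non-coding genes, and 1 held an end of LOC101927235. None lay in a protein-coding gene.

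On the other side, loop3661 joined chr2:60790001-60800000 in the body of PAPOLG to chr2:60900001-60910000 in the body of REL, 110 kb apart. Its PAPOLG anchor was shared with loop3662, whose second anchor, chr2:61000001-61010000, lies in PUS10, a gene for a pseudouridine synthase. That PUS10 anchor was also the end of loop3660, which began at chr2:60700001-60710000, in a gap 46.3 kb before PAPOLG. The fourth, loop3663, joined chr2:60800001-60810000, with the 3' end of PAPOLG, to chr2:61180001-61190000, with an end of USP34, a gene for a ubiquitin protease.

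None of the 4 short loops was called changed at any time. The filter on low counts (edgeR's filterByExpr, minimum count 10 and minimum total 15) left 24132 loops for the test, and of the 12 loops here only these 4 passed it. By edgeR's quasi-likelihood test with Benjamini-Hochberg adjustment over all tested loops, 0 of 4 passed an adjusted p of 0.05 in each comparison. In this fit none of the 4 had an unadjusted p under 0.05 either, and DESeq2 also called 0. Over all tested loops, 6.41% were called at 6 h against 0 h, 33.6% at 72 h against 0 h and 20.5% at 72 h against 6 h.

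The loop between PAPOLG and REL, loop3661, had 36.9, 39.9, 48.9 and 40.9 normalised contacts in replicates 1 to 4 at 0 h. At 6 h it had 39.2, 53.3, 53.8 and 48.3, and at 72 h 51.3, 42.2, 46.8 and 60.7. The means were 41.7 ± 5.1 (SD, n = 4), 48.6 ± 6.8 (SD, n = 4) and 49.1 ± 6.1 (SD, n = 3). Replicate 4 at 72 h was the highest library, and the 3 times overlapped. The log2 fold change of 72 h against 0 h was 0.29 (SE 0.15, edgeR adjusted p 0.12), with a 95% interval of 0.998 to 1.5 for the fold. At 6 h against 0 h it was 0.23 (SE 0.16, edgeR adjusted p 0.427). When each technical replicate was taken as a library of its own, the change at 72 h became 0.34 and passed the threshold (edgeR adjusted p 0.0373), but technical replicates of one biological replicate are not independent.

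The loop from PAPOLG to PUS10, loop3662, was measured at 62.3, 57, 66.5 and 56.9 normalised contacts at 0 h. The values were 66.7, 67.3, 86.3 and 56.7 at 6 h and 65.5, 48.2, 58.2 and 56.2 at 72 h. Replicate 3 at 6 h stood above all other libraries of this loop. Means were 60.6 ± 4.6 (SD, n = 4), 69.2 ± 12 (SD, n = 4) and 57 ± 8.6 (SD, n = 3). The log2 fold change was -0.08 at 72 h against 0 h (SE 0.14, edgeR adjusted p 0.687), with an interval of 0.786 to 1.14 for the fold.

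For loop3660, the one from the gap before PAPOLG to PUS10, the values were 57.2, 70.3, 64.0 and 51.2 normalised contacts at 0 h. They were 59.8, 52.3, 52.4 and 77.2 at 6 h and 47.8, 45.2, 58.2 and 54.5 at 72 h. The means of 60.7 ± 8.3 (SD, n = 4), 60.4 ± 12 (SD, n = 4) and 49.8 ± 5.8 (SD, n = 3) overlapped in their libraries. From 0 h to 72 h the log2 fold change was -0.23 (SE 0.14, edgeR adjusted p 0.192), and the interval of the fold ran from 0.705 to 1.03. The loops loop3660 and loop3662 share the PUS10 anchor, so they are not independent readings of it.

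The longest of the 4, loop3663 from the end of PAPOLG to USP34, was also the weakest. It had 15.9, 8.54, 18.8 and 14.8 normalised contacts at 0 h, 16.7, 16.8, 11.3 and 15.7 at 6 h, and 12.4, 10.0, 12.5 and 17.9 at 72 h. The lowest library, replicate 2 of 0 h, rested on 9 raw contacts. Means were 14.5 ± 4.3 (SD, n = 4), 15.1 ± 2.6 (SD, n = 4) and 12.5 ± 2.6 (SD, n = 3), and the fold of 72 h against 0 h had an interval of 0.671 to 1.3. Changes within that interval remain compatible with these counts.

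**Figure D2:**
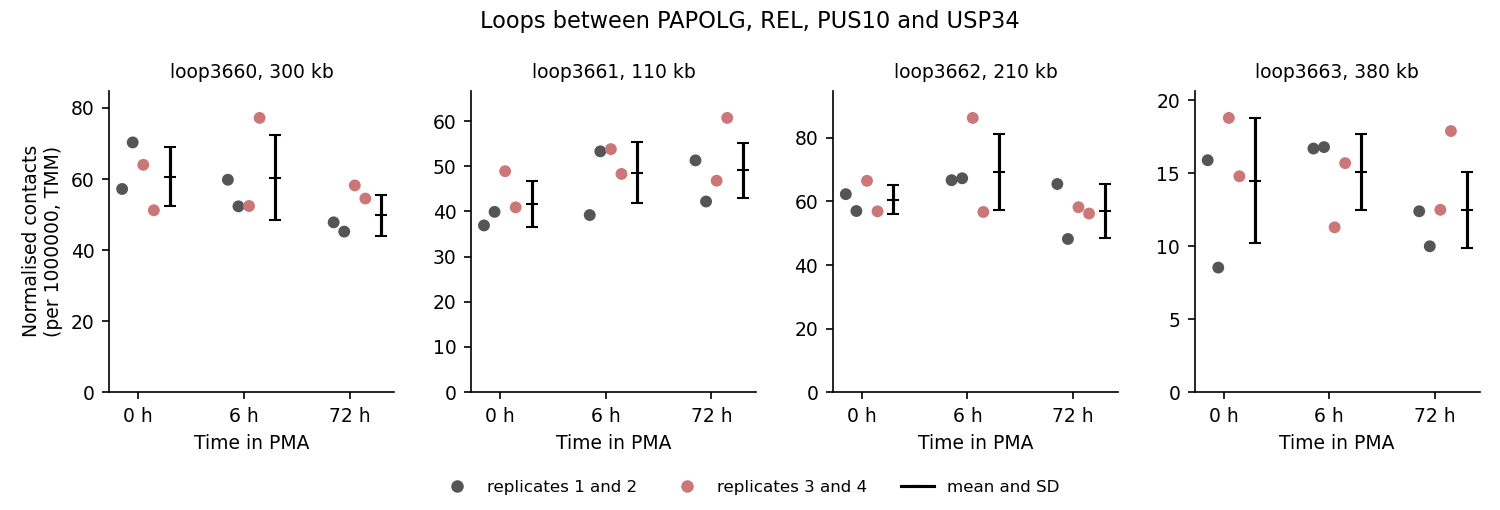
Normalised contacts (TMM scaled, linear axis from 0) of the 4 short loops by time in PMA; each dot is a library, grey for replicates 1 and 2 and red for 3 and 4, and the dash with its bar is the mean and SD (n = 4, 4 and 3). The times overlap in every panel, with loop3661 at 41.7 ± 5.1 at 0 h and 49.1 ± 6.1 at 72 h.

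Summed over the 4 short loops, the 0 h libraries held 177 ± 15 normalised contacts (SD, n = 4). The 6 h libraries held 193 ± 9.4 (SD, n = 4) and those of 72 h held 168 ± 20 (SD, n = 3). At 72 h against 6 h the log2 fold changes were 0.06 for loop3661, -0.25 for loop3662, -0.22 for loop3660 and -0.19 for loop3663, with edgeR adjusted p from 0.182 to 0.802. In the authors' deposited table, all 12 loops had the class static. The same authors' deposited table gave log2 fold changes for these 4 loops alone, between -0.14 and 0.20 at 72 h, and adjusted p-values over the time points of 0.666 for loop3660, 0.539 for loop3661 and 0.576 for loop3662.

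The 8 long loops of the BCL11A side carried few contacts, and their counts rose with PMA time in the sum. At 0 h they held 96 raw contacts in all, at 6 h 130 and at 72 h 221. Per library this was 23.6 ± 7.0 normalised contacts in 0 h libraries (SD, n = 4). It was 36.0 ± 3.9 after 6 h (SD, n = 4) and reached 54.1 ± 8.2 after 72 h (SD, n = 3). The 4 libraries of 0 h reached at most 32.6, and the lowest of 72 h had 42.6, so these times did not overlap. No such sum was made for other long loops, which were also mostly higher at 72 h, as given below. The 4 short loops held 725, 697 and 726 raw contacts at 0 h, 6 h and 72 h. All 8 long loops were under the filter, so the edgeR values below come from a fit of all 33914 loops with no filter. This fit was added because of the long loops, and a prior count of 2 in its log2 fold changes draws loops of few contacts toward 0.

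Of the 12 loops, 2 rose at 72 h against 0 h in this fit, loop3640 and loop3642, and none fell. An unadjusted p under 0.05 was reached by 4 of the 12, these 2, loop3655 and the short loop3660, which had -0.30 (SE 0.14, edgeR adjusted p 0.106). In the same fit 26.2% of all loops were called at 72 h against 0 h, and 11.5% were called as gained. That share depended on the scaling: 3916 loops were gained and 4981 lost with TMM, while total-count scaling gave 5253 gained and 3500 lost and moved the median of all loops to 0.12. Both loops were called under either scaling. At 6 h against 0 h, 0 of 12 were called, where 4.54% of all loops were, and 3 had an unadjusted p under 0.05. At 72 h against 6 h it was also 0 of 12, beside 14.7% of all loops and 3 at an unadjusted p under 0.05, among them the short loop3662 with -0.29 (edgeR adjusted p 0.149). DESeq2 with no filter called the same counts, 2 at 72 h against 0 h and 0 in the other comparisons.

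The longest, loop3640, spans BCL11A and is 2860 kb long. It had 3, 1, 2 and 1 raw contacts in replicates 1 to 4 at 0 h, then 4, 6, 7 and 4 at 6 h and 8, 6, 3 and 12 at 72 h. At 72 h replicate 3 was as low in raw contacts as the highest library of 0 h. It was above that library only after scaling, at 3.12 normalised contacts against 2.51. From 7, 21 and 29 contacts in all, the depth-scaled ratio of 72 h to 0 h was 4.05, with an exact 95% counting interval of 1.73 to 10.9. On the log2 scale the fold change was 1.22 (SE 0.36, edgeR adjusted p 0.00549). Without 72 h replicate 4 it was 0.97 and no longer passed the threshold (edgeR adjusted p 0.0548). At 6 h against 0 h it was 1.06 (SE 0.37, edgeR adjusted p 0.0803).

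The loop3642 of 2390 kb, which ends downstream of BCL11A and does not reach the gene, had 2, 3, 1 and 1 raw contacts at 0 h. It had 5, 4, 4 and 6 at 6 h, and 9, 11, 7 and 7 at 72 h. These made 7, 19 and 34 raw contacts in all. After scaling, 6 h and 72 h overlapped: 6 h replicate 4 had 7.24 normalised contacts and 72 h replicate 4 had 6.25. The log2 fold change of 72 h against 6 h was 0.45 (SE 0.33, edgeR adjusted p 0.387). The depth-scaled ratio of 72 h to 0 h was 4.74, with a counting interval of 2.07 to 12.7, and the log2 fold change was 1.40 (SE 0.35, edgeR adjusted p 0.000948). At 6 h against 0 h the log2 fold change was 0.95 (SE 0.37, edgeR adjusted p 0.128). The anchors of loop3640 and loop3642 at the far side start 30 kb apart, at 57710001 and 57740001.

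Within the batches of replicates the sizes were alike but the calls were not. The fits took replicates 3 and 4 of 72 h as 2 libraries, though they count once in the means. By that count this pair had 1 sample at 72 h, so its p-values below hold no spread between samples of 72 h. For loop3640 the raw contacts of 0 h, 6 h and 72 h were 4, 10 and 14 in replicates 1 and 2, and 3, 11 and 15 in replicates 3 and 4. At 72 h against 0 h its log2 fold change was 1.24 in the first pair (edgeR adjusted p 0.0803) and 1.18 in the second (edgeR adjusted p 0.115). For loop3642 the contacts were 5, 9 and 20 in replicates 1 and 2, and 2, 10 and 14 in replicates 3 and 4. Its log2 fold change was 1.49 in replicates 1 and 2 (edgeR adjusted p 0.0197) and 1.34 in replicates 3 and 4 (edgeR adjusted p 0.0759).

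The loop with an anchor at the BCL11A start, loop3658, had 5, 6, 3 and 3 raw contacts at 0 h, 5, 5, 1 and 1 at 6 h, and 6, 11, 8 and 7 at 72 h. In raw contacts, replicate 2 of 0 h was level with replicate 1 of 72 h, and the other 72 h libraries were above all of 0 h. From 17, 12 and 32 contacts in all, the ratio of 72 h to 0 h was 1.84, with a counting interval of 0.991 to 3.53. In the fit the change was 0.60 on the log2 scale (SE 0.33, edgeR adjusted p 0.175), so this loop did not pass the threshold. Against 6 h the change at 72 h was 0.83 (SE 0.35, edgeR adjusted p 0.0897).

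The shared anchor upstream of BCL11A had 52, 77 and 110 raw contacts over its 4 loops at 0 h, 6 h and 72 h. Its loops did not all follow the same course. While loop3640 had 7, 21 and 29 contacts in all, loop3646 had 18, 14 and 33 and loop3654 had 15, 15 and 29. Their log2 fold changes at 72 h against 0 h were 0.57 (edgeR adjusted p 0.192) and 0.61 (edgeR adjusted p 0.179). The fourth, loop3657, was highest at 6 h, with 9, 5, 6 and 7 raw contacts against 5, 1, 4 and 2 at 0 h and 5, 5, 2 and 7 at 72 h. Its ratio of 6 h to 0 h was 2.55, with a counting interval of 1.25 to 5.53, and its log2 fold change of 0.92 (SE 0.35) did not pass the threshold (edgeR adjusted p 0.118).

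The other 2 loops downstream of BCL11A shared the anchor starting at 60140001. For loop3655 the contacts in all were 8, 10 and 21, with 0 in replicate 3 and 7 in replicate 1 at 6 h. Its 72 h libraries had 3.01 to 7.14 normalised contacts and those of 0 h 0.949 to 2.9, and the log2 fold change was 0.78 (SE 0.37, edgeR adjusted p 0.107). The shortest, loop3659, differed between the batches: at 72 h it had 9 and 11 raw contacts in replicates 1 and 2 but 2 and 2 in replicates 3 and 4. At 0 h it had 2, 3, 5 and 2, and its log2 fold change of 0.60 (edgeR adjusted p 0.218) was 1.49 within replicates 1 and 2 (edgeR adjusted p 0.0198) and -0.66 within replicates 3 and 4.

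**Figure D3:**
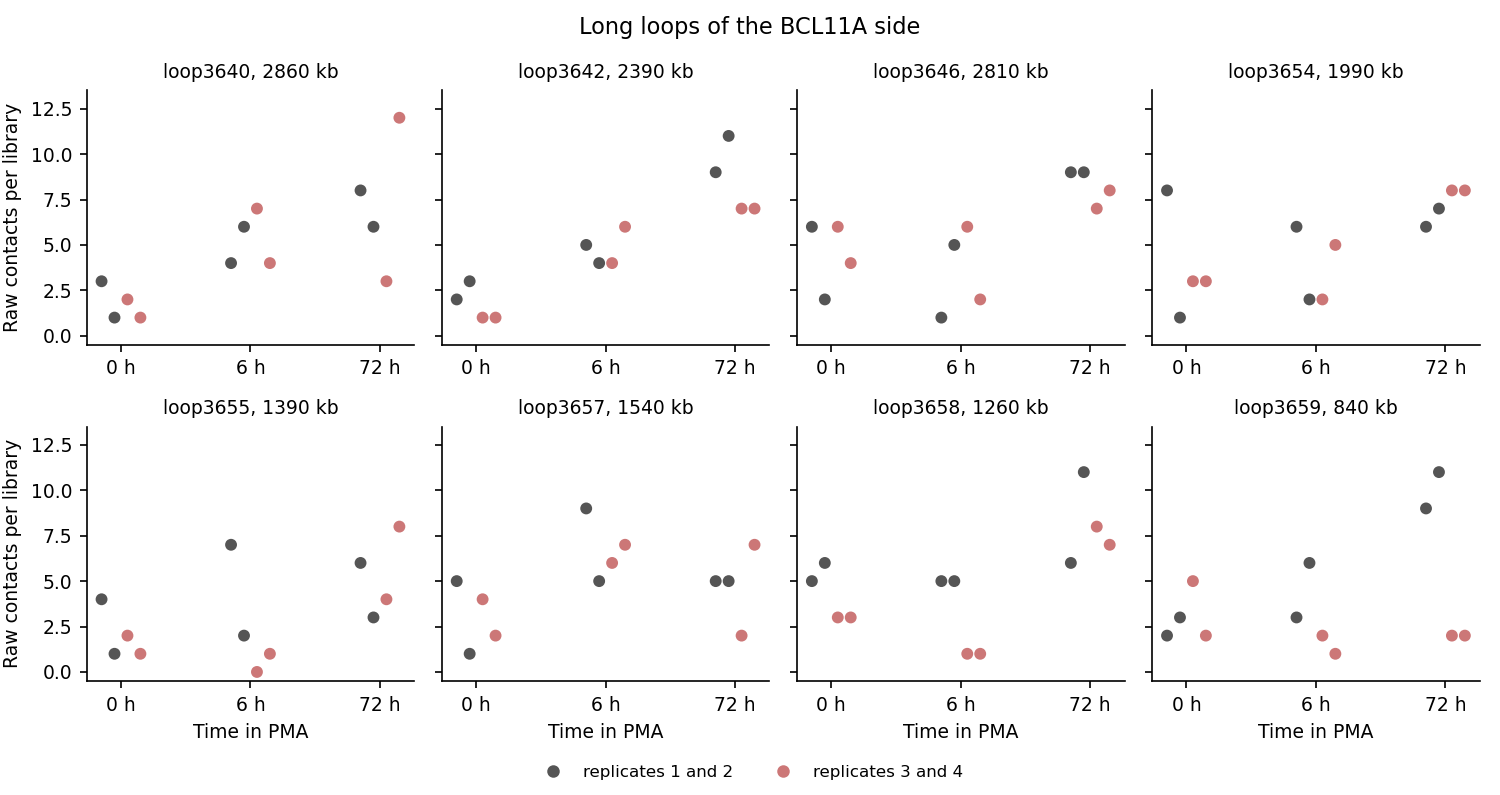
Raw contacts per library (linear axis) of the 8 long loops by time in PMA; each dot is a library, grey for replicates 1 and 2 and red for 3 and 4, on 1 common scale. The 72 h libraries of loop3642 have 7 to 11 contacts and those of 0 h 1 to 3, whereas at 72 h loop3659 has 9 and 11 contacts in replicates 1 and 2 and 2 in each of the others.

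At 72 h against 0 h the log2 fold change was above 0 in 8 of the 8 long loops, with a median of 0.60. The other loops of at least 800 kb were also mostly higher: of 10000, 75.2% had a value above 0, their median was 0.29 and 12.6% were called as gained. Among the 7681 of them under the filter the median was 0.29 and 8.76% were gained. In 3 of the 12 loops (loop3640, loop3642 and loop3655) all 72 h libraries lay above all of 0 h in normalised contacts, where this held for 13.2% of all loops. At 6 h against 0 h the median was 0.18 over the 8 long loops and 0.15 over the other loops of at least 800 kb. With shared anchors and so few contacts, these counts describe the locus and do not set it apart from other long loops.

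The change at 72 h varied with loop length over the whole table. In the fit with no filter the median log2 fold change was -0.26 in loops of 30 to 100 kb, -0.15 in those of 100 to 200 kb and -0.08 in those of 200 to 400 kb. It was 0.06 from 400 to 800 kb, 0.25 from 800 to 1600 kb and 0.36 from 1600 to 3000 kb. With an offset per library fitted on loop length, the log2 fold change was 0.98 for loop3640 (edgeR adjusted p 0.0365). It was 1.17 for loop3642 (edgeR adjusted p 0.00896), beside 1.22 and 1.40 for these loops without the offset. That fit was added after seeing the data, and whether loop length accounts for the rises was not tested. The upper quartile of the 1600 to 3000 kb class was 0.64 in the fit without the offset. Both loops were singled out by their calls in that same fit, so lying above the quartile does not show how unusual they are.

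**Figure D4:**
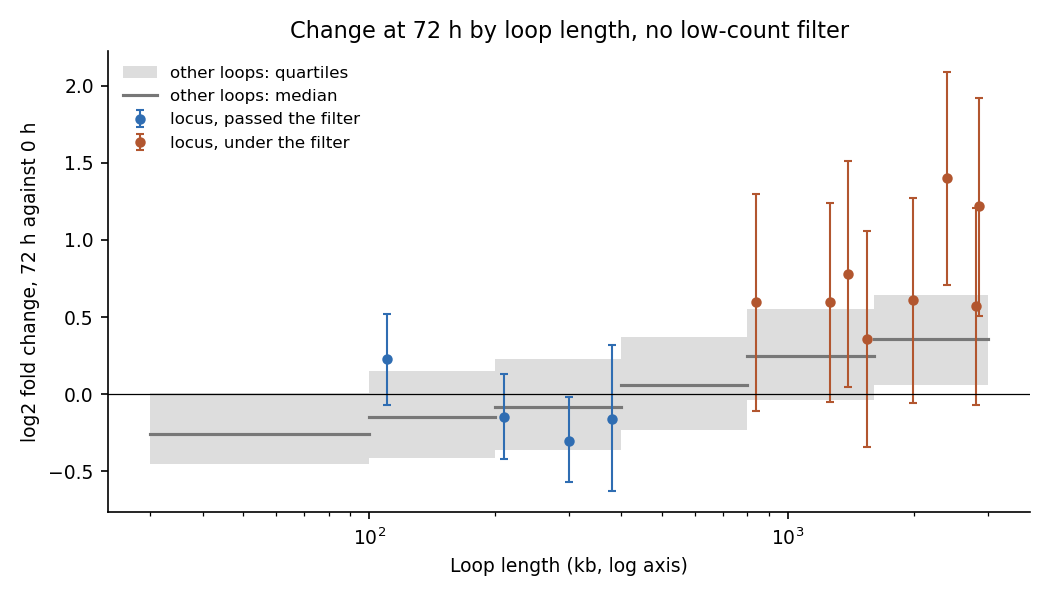
The log2 fold change of 72 h against 0 h (edgeR, no filter) of the 12 loops as dots with 95% intervals against loop length on a log axis, beside the median (grey line) and quartiles (grey band) of all other loops in 6 length classes. The 8 long loops (brown) lie at 0.36 to 1.40, above the medians of 0.25 and 0.36 of their classes, and the 4 short loops (blue) lie at -0.30 to 0.23. In loops of few contacts the prior count narrows the intervals along with the fold changes.

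Outside the window, the next loops toward lower coordinates were loop3643, loop3653 and loop3656, and none of them was called in any comparison by edgeR. On the other side the next was loop3664, with anchors starting at 61120001 and 61790001, and then loop3665, starting at 61140001 and 61650001. In loop3665, 28.0 ± 3.5 normalised contacts before PMA (SD, n = 4) became 33.2 ± 3.6 after 6 h (SD, n = 4) and 15.9 ± 2.6 after 72 h (SD, n = 3). It fell at 72 h against 0 h, with a log2 fold change of -0.69 and an edgeR adjusted p of 0.00454. For loop3664 the means were 18.8 ± 6.3, 25.9 ± 6.3 and 12.7 ± 4.6, with a fall from 6 h to 72 h (log2 fold change -0.97, edgeR adjusted p 0.000637). The third on that side, loop3666, had 14.3 ± 3.4, 15.8 ± 3.8 and 15.2 ± 1.9 and was not called in any comparison.

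Of the 4 tested loops, loop3661 had the lowest p over the 3 times (0.132, unadjusted, edgeR). The loops of the table whose log2 values most resembled it over the 12 libraries, among 16058 compared, were loop29097 on chromosome 16 (Pearson r 0.88, Spearman 0.86), loop30886 on chromosome 19 (0.88 and 0.85) and loop17465 on chromosome 8 (0.86 and 0.82). These are the highest of many values over libraries that share their depth, and they are given as a description.

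Loops at other genes of the pathways of BCL11A, REL and PAPOLG were counted from 3 lists, taking a gene to be at a loop when an end of it lay in an anchor, which can hold ends of other genes too. The fetal globin list had 27 genes, with regulators such as KLF1 and MYB, cofactors of BCL11A and the globin genes themselves. It had 18 tested loops at 13 genes. At 72 h against 0 h, 7 of the 18 fell and 0 rose by edgeR. The median log2 fold change was -0.26, beside 0.011 over all tested loops. These 7 calls of 18 are a share near the 33.6% called over all tested loops, where 4024 rose and 4081 fell. Shorter loops had lower values in general: in the fit with no filter, the other loops of 100 to 400 kb that passed the filter had a median of -0.11, and 23.4% of them were lost. In that fit the median was -0.26 from 30 to 100 kb and -0.15 from 100 to 200 kb. It was -0.08 from 200 to 400 kb and 0.06 from 400 to 800 kb. The 18 loops of the list were 30 to 620 kb long, and their median comes from the fit with the filter. The fallen loops at HBG2, ZFPM1, KLF1 and RCOR1 were 30, 40, 50 and 70 kb long. Those at MYB were 120 and 100 kb long, and that at NFIX 120 kb. Whether loop length accounts for the falls was not tested. BCL11A's own loop, loop3658, was under the filter and is not among the 18. The largest fall was at MYB, an activator of red cell progenitor growth that restrains fetal globin, with -0.84 (SE 0.15, edgeR adjusted p 4.24e-06) and -0.70 (SE 0.13, edgeR adjusted p 9.4e-06) in 2 of its 3 loops. The third loop at MYB had -0.26 (edgeR adjusted p 0.177). Loops at RCOR1 (-0.53), a corepressor subunit, at NFIX (-0.52), a nuclear factor I gene, and at HBG2 (-0.44), a fetal globin gene, also fell. A second loop at RCOR1 had 0.27 (edgeR adjusted p 0.423). Falls were also called at KLF1 (-0.41), an erythroid activator of BCL11A, and ZFPM1 (-0.28), the GATA cofactor FOG1.

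The Rel and NF-kB list had 21 genes and 18 tested loops at 12 of them, with no loop at an end of REL. At 72 h against 0 h, 2 rose and 5 fell by edgeR, with a median of -0.28. These 7 calls of 18 are a share near the 33.6% called over all tested loops. A loop at CD83, an NF-kB target on activated cells, rose by 0.88 (SE 0.22, edgeR adjusted p 0.000714), and the largest fall was at NFKB2, which encodes the p100 precursor, with -1.09 (SE 0.30, edgeR adjusted p 0.00246). The other loop at NFKB2 had -0.36 and did not pass the threshold (edgeR adjusted p 0.0928). TNFAIP3, the gene of the inhibitor A20, had a loop of 160 kb that rose by 0.31 (edgeR adjusted p 0.0224) and shorter ones that fell (-0.30 and -0.33). Loops at NFKBIE (-0.44), an inhibitor of NF-kB, and BIRC3 (-0.65), a ubiquitin ligase of the pathway, fell as well. A second loop at BIRC3 had 0.41 and did not pass the threshold (edgeR adjusted p 0.124). The polyadenylation list had 22 genes and 16 tested loops at 12 of them, loop3663 at the end of PAPOLG included. At 72 h, 1 rose, at the poly(A) polymerase gene TENT2 (0.64, edgeR adjusted p 0.0027), and 2 fell, at CSTF1 (-0.70) of the cleavage stimulation factor and PABPN1 (-0.47), a nuclear poly(A) binding protein, with a median of -0.02. These 3 calls of 16 compare with 33.6% of all tested loops. At 6 h against 0 h, 4 of 18, 1 of 18 and 1 of 16 loops of the lists were called in the order given, beside 6.41% of all tested loops.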

How the data were processed

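Raw counts of contacts per loop were deposited by the authors in 30 columns, 1 per technical replicate, per the file headers. Sequencing runs of replicates 3 and 4 are not separate columns, and 0 per-sample columns were left unused. The submitters' processing notes name Juicer 1.5.6, DESeq2 and the build hg38, with no role given. How loops were called is not given in the sources used here. The authors also deposited log2 fold changes, an adjusted p-value that is the same in both of its columns, and a class. Anchor positions, deposited with starts counted from 0, are given here counted from 1. No background is subtracted from a count.

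Technical replicates were summed into 12 libraries and tested in 1 model without covariates by the quasi-likelihood method of edgeR 4.0.16 (R 4.3.3) after TMM scaling. P-values were adjusted by Benjamini-Hochberg, and a loop was called at an adjusted p under 0.05. The script was tested on simulated data. Alternatives were DESeq2 1.42.0, other scalings, filters and thresholds, a length offset (loess, span 0.3), a replicate block, a batch term, fits within batches and leaving out each library. The fits of the 12 loops with no filter combined with another choice were added after seeing the data. The counting interval of a ratio is exact, treats contacts as independent and covers counting error only.

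Same-numbered libraries correlated in their deviations from the time means at 0.015 to 0.12 over 12 pairs, with 1 pair over 0.1. Differently numbered libraries of different times gave -0.074 to 0.044. The labels do not say what a number shares, so the main model did not pair the libraries, and the replicate block was an alternative. Gene names and starts come from RefSeq tables of GRCh38.p14. The loops and the gene lists were chosen with earlier results of these data known. Every loop of the window is described, and those called in any comparison are named with their statistics. All genes of the lists matched the reference.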

Additional observations from a re-analysis of the deposited data

Results flagged for a closer look

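Among 24 groups of 4 libraries (the 12 loops at 0 h and 6 h), 2 had a library far from the others, where 1.2 are expected by chance. At 6 h, replicate 2 of loop3657, which spans BCL11A, had 4.67 normalised contacts while the other replicates had 8.44 to 8.82. At 0 h, replicate 2 of loop3658, which has an anchor at the BCL11A start, had 5.7 normalised contacts while the others had 3.41 to 3.76. They rest on 5 and 6 raw contacts.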

How the results depend on the processing

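The count of locus loops changed at 72 h against 0 h was 0 of 4 with the filter, 2 of 12 with no filter and 1 with technical replicates as libraries (loop3661). With no filter it was 0 within replicates 3 and 4 and 1 to 2 when libraries were left out in turn; within replicates 1 and 2 it was 2, but these were loop3642 and loop3659. All other alternatives tried for the locus counts, in each of the 3 comparisons, gave the count already reported. The log2 fold change of loop3640 at 72 h ranged from 0.97 to 1.96 over 21 alternatives (adjusted p 0.00251 to 0.115), and that of loop3642 from 1.17 to 2.21 (adjusted p 0.000541 to 0.0759), edgeR and DESeq2 included. The sign of loop3659 turned within replicates 3 and 4, whose 72 h libraries count as 1 sample in the means.

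In 21 of 24 comparisons of a library with another time, it correlated best with its own number. The replicate numbers thus carried some shared structure, though the correlations were low and the labels do not say what a number shares. With the replicate block and no filter, loop3640 rose by 1.20 (edgeR adjusted p 0.0058) and loop3642 by 1.40 (edgeR adjusted p 0.000823), and the block changed no call or count of the locus or of the lists. With the 72 h replicates 3 and 4 summed, these values were 1.26 and 1.45, and both loops were called.

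The fetal globin list had 7 changed loops at 72 h: 2 with a fold change of at least 1.5, 4 within replicates 1 and 2, 6 to 8 leaving out libraries, 18 of 46 when a gene end could lie up to 10 kb from the anchor and 21 of 52 with any part of the gene over it. The Rel and NF-kB list had 7: 3 with that fold, 4 within each pair of replicates, 6 to 9 leaving out libraries, 23 of 47 and 12 of 29 with the wider placings. The polyadenylation list had 3: 5 with total-count scaling, 5 with a mean count of at least 20, 5 with technical replicates as libraries, 1 within replicates 3 and 4, 2 to 4 leaving out libraries, 13 of 40 and 10 of 35 with the wider placings. The cause of these shifts was not tested.

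Depth limits the long loops most: a single contact more or less in a library of 1 to 12 contacts moves its value widely, and ratios carry counting intervals several-fold wide.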
